A study of Homo sapiens with 18 samples.

Results

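HAUS1 to HAUS8 encode the 8 subunits of augmin, the complex that lets new microtubules grow as branches from the side of existing ones. The family was chosen by the knockdown values of 1 member, since HAUS4 was among the genes with the largest decrease after ACAT1 knockdown in an earlier reading of these data, and its other members were then taken by name. They are 8 of the 39496 genes in the table, and all 8 passed the filter on low counts among the 20144 genes tested. The knockdown values of HAUS4 are therefore given without a test.

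RNA-seq was performed on UM-UC-3 and T24, established human bladder cancer (BLCA) cell lines. Each cell line was transiently transfected with a control siRNA (siNC) or with one of 2 siRNAs against ACAT1 (siACAT1-1 and siACAT1-2), and each of the 6 groups held 3 libraries that the labels number as biological replicates. The siNC cells are labelled wild type, no group carries an engineered allele, and the time between transfection and RNA extraction is not given in the sources used here. ACAT1 encodes a mitochondrial acetyl-CoA acetyltransferase, and the comparison asks how its knockdown changes these BLCA cells.

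Augmin binds the wall of a spindle microtubule and recruits the γ-tubulin ring complex to it through the adaptor NEDD1, and the ring complex then nucleates a daughter microtubule at a shallow angle. Branching of this kind supplies a large part of the microtubules of the mitotic spindle, and it helps to build kinetochore fibers and to keep the poles focused. HAUS6 and HAUS7 form, with HAUS2 and HAUS8, the part of augmin that meets the microtubule and, through HAUS6, NEDD1, whereas HAUS1, HAUS3, HAUS4 and HAUS5 form the other, elongated part.

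The ACAT1 mRNA was low in every siACAT1 library. Its mean RPKM (the read count scaled to exon length and to the counted reads of the library) was 93.4% (siACAT1-1) and 95.3% (siACAT1-2) lower than with siNC for UM-UC-3, and 92.0% and 95.1% lower for T24. Between 25163490 and 34417230 reads were counted per library. Of the 12 epithelial and urothelial markers, KRT8, KRT18 and KRT7 had a mean of at least 1 RPKM in both cell lines, whereas CDH1, KRT5, UPK1B and UPK3A were under 0.1 RPKM in both. The defining leukocyte, endothelial and stromal genes PTPRC, CD3E, PECAM1, VWF and DCN were also under 0.1 RPKM in both cell lines. In UM-UC-3 cells the 12 epithelial markers summed to 166 to 210 RPKM under siNC, 129.9 to 144 under siACAT1-1 and 135 to 154 under siACAT1-2. The 10 leukocyte, endothelial and stromal markers, a sum that is mostly CD68, summed to 127 to 161, 169.9 to 218 and 141 to 181 RPKM. Of these, the siACAT1-2 range overlapped that of siNC. In T24 cells the epithelial sums overlapped between the groups (429 to 971, 301 to 767 and 397 to 1099.9 RPKM), as did the other sums (16.9 to 122, 19.95 to 155 and 37.7 to 169.9 RPKM). The part of these shifts in the subunit values was not tested. Libraries with the replicate number 3 in UM-UC-3 cells and the number 2 in T24 cells stood apart from the others: chi-square per degree of freedom between libraries of a group was 79.5 to 245 for pairs that include one of them and 15.8 to 65.3 for the remaining pairs. What a replicate number marks is not stated in the sources used here. Libraries with the same number deviated together from their group means within each cell line, and values from a model with the number as a block are therefore given wherever they change a call. With the block, KRT7, KRT18 and KRT8 were called lower in the mean of the 4 comparisons with siNC (adjusted p = 0.00827, 0.00416 and 0.0469, edgeR), against 6.46% of all genes. CD68 was called higher (adjusted p = 0.000803, edgeR), against 5.95%, and without the block none of these was called. By cell line, with the block, 3 of the 8 epithelial markers tested were called lower in T24 and 2 in UM-UC-3 cells, against 5.2% and 0.362% of all genes.

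The start regions of HAUS4, HAUS1 and HAUS6 are shown because HAUS4 and HAUS1 were the subunits with the lowest fold changes and HAUS6 had the smallest difference from siNC. Each runs 5′ to 3′ from 250 bases before to 50 bases after the gene start in RefSeq (GRCh38.p14), and capitals mark the letters TTCCCGC or TTGGCGC, the core of sites bound by E2F, a family of transcription factors of the G1 to S transition, on either strand.
HAUS4 (chr14:22957041-22957340, minus strand): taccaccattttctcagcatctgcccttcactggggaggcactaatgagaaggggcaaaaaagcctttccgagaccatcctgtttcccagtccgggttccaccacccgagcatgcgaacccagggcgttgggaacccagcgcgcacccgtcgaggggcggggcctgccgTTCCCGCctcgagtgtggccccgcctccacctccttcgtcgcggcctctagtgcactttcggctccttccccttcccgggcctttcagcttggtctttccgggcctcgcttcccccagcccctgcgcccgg
HAUS1 (chr18:46104135-46104434, plus strand): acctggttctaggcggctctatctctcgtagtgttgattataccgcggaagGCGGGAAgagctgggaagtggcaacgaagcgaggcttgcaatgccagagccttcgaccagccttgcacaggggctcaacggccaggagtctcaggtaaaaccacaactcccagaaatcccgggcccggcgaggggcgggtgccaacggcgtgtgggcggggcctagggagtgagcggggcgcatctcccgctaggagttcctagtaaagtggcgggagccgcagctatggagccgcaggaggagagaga
HAUS6 (chr9:19102855-19103154, minus strand): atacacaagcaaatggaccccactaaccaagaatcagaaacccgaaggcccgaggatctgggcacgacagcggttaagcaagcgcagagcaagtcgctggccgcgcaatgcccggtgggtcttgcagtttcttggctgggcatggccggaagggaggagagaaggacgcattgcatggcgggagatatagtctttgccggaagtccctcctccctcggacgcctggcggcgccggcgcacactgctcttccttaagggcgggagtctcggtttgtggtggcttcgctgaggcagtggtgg
The E2F letters lie at position -81 from the HAUS4 start and at -199 from the HAUS1 start, and the 300 bases of HAUS6 do not hold them. All 8 subunits matched the RefSeq table with 10 start regions, since HAUS7 and HAUS8 have more than 1. The E2F letters were found in start regions of 6 subunits (HAUS1, HAUS2, HAUS4, HAUS5, HAUS7 and HAUS8), in 7 of 10 regions, against 9.23% of the 35116 start regions in the table. The CCAAT box (CCAAT, either strand) was found for HAUS7 and in 34.6% of all regions, and the cell cycle element TTTGAA was found for HAUS8 and in 15.2% of all regions. The E-box CACGTG, to which MYC and other factors bind, was in 0 of 10 regions and in 7.26% of all regions. The motifs were chosen after the sequences had been seen, and a match describes letters in this window and not a bound site.

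The subunits differed widely in level in control cells. Under siNC, HAUS1 had the highest mean in both cell lines, with 12.96 ± 3.21 RPKM (SD, n = 3) for UM-UC-3 and 13.2 ± 1.66 RPKM for T24. HAUS4 followed at 12.5 ± 2.84 and 9.72 ± 1.73 RPKM, and HAUS7 was next at 9.63 ± 2.40 and 9.39 ± 0.972 RPKM. In UM-UC-3 cells the siNC libraries of these neighbouring subunits overlapped, whereas in T24 cells all HAUS1 values lay above those of HAUS4. HAUS2 was the lowest of the 8 in 18 of 18 libraries, at 1.04 ± 0.276 RPKM in UM-UC-3 siNC cells and 1.26 ± 0.278 RPKM in T24 siNC cells. The counts behind its values were only 76 to 192 per library. HAUS1 was the highest in 14 of 18 libraries and HAUS7 was among the highest 3 in all 18. These levels are per base of all annotated exons, not per base of the transcripts that the cells use, so an order between genes with long unused exons is approximate.

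**Figure D1:**
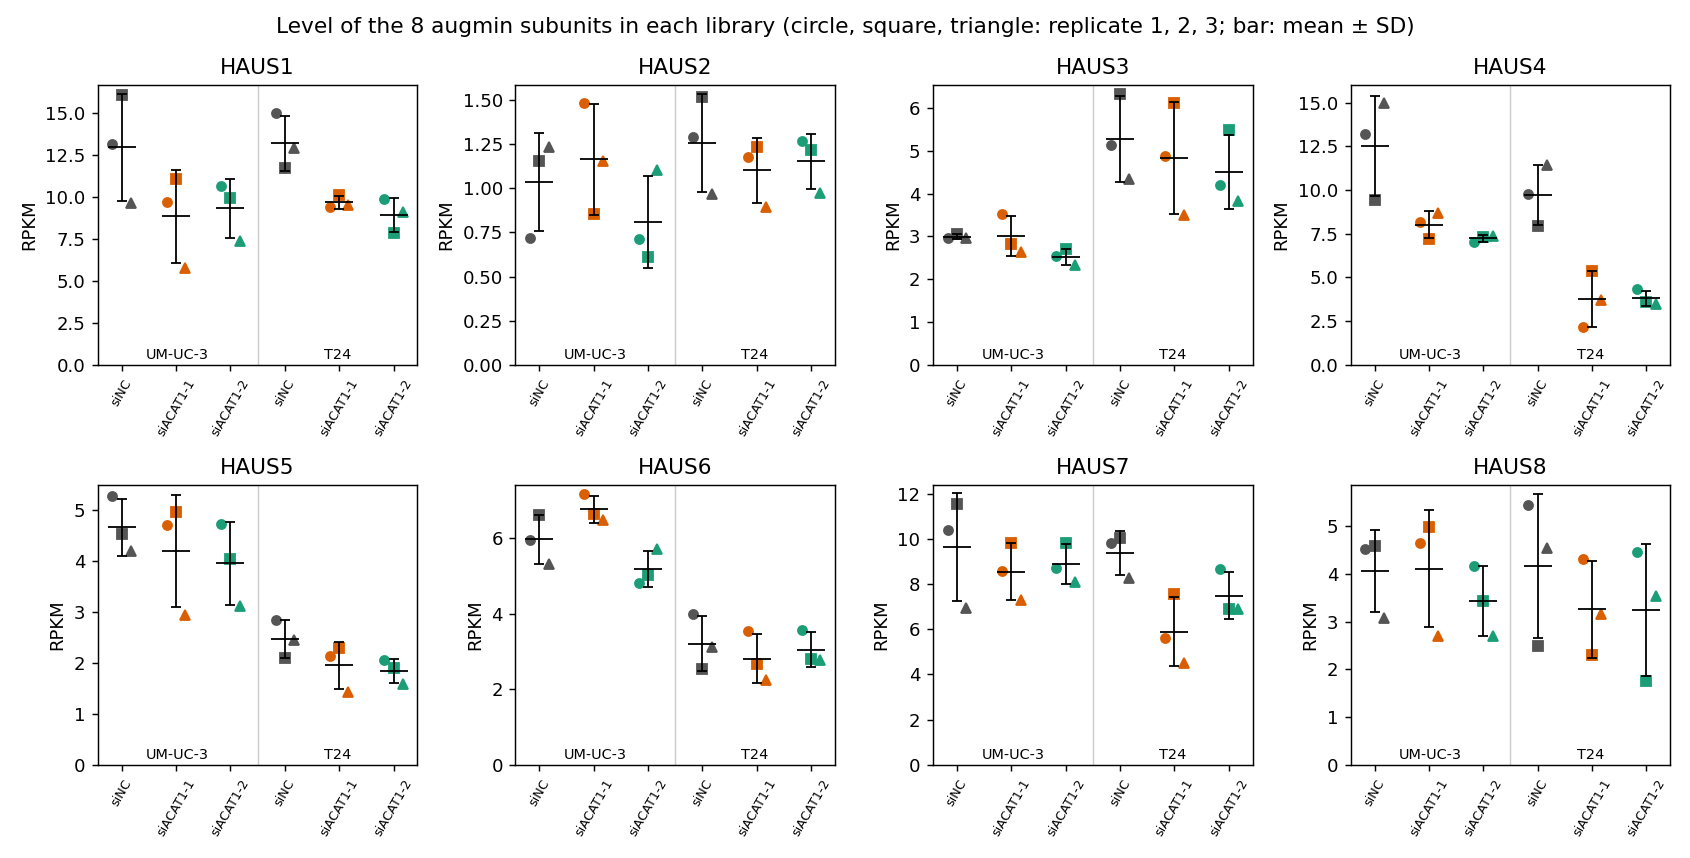
RPKM (y axis, from 0) of each subunit in the 6 groups of cell line and siRNA (x axis), with 1 point per library, circles, squares and triangles for replicate numbers 1, 2 and 3, and bars for mean ± SD of 3 libraries. All HAUS4 points with either ACAT1 siRNA lie below the siNC points of the same cell line, HAUS1 does so in T24 cells, and HAUS3, HAUS5 and HAUS6 differ between the cell lines.

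HAUS3, HAUS5 and HAUS6 differed between the cell lines without knockdown, HAUS3 being higher in T24 cells and HAUS5 and HAUS6 higher in UM-UC-3 cells. HAUS3 had 2.96, 3.06 and 2.96 RPKM in the UM-UC-3 siNC libraries and 5.15, 6.34 and 4.35 RPKM in the T24 siNC libraries. Its log2 difference (UM-UC-3 minus T24) was -0.77 (95% interval -1.19 to -0.35), with an adjusted p of 0.00443 from edgeR's quasi-likelihood test. HAUS5 had 5.28, 4.53 and 4.19 RPKM in UM-UC-3 and 2.85, 2.10 and 2.45 RPKM in T24 siNC libraries, and the log2 difference was 0.96 (0.43 to 1.48, adjusted p = 0.00501, edgeR). HAUS6, the subunit that reaches NEDD1, had 5.96, 6.601 and 5.32 RPKM in UM-UC-3 and 3.98, 2.52 and 3.102 RPKM in T24 siNC libraries, and the log2 difference was 0.93 (0.47 to 1.39, adjusted p = 0.00234, edgeR). None of these 3 subunits overlapped between the lines. Such differences were common in the whole table, since 44.3% of the genes tested passed the same threshold and 53.2% did not overlap between the siNC libraries of the cell lines.

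Of the remaining 5 subunits, HAUS1, HAUS2, HAUS7 and HAUS8 were not called between the cell lines, and their intervals still allow sizable differences. HAUS4 was 0.40 higher in UM-UC-3 cells on the log2 scale (SE 0.25). It is given without a test, since its siNC libraries enter the comparison that chose the family. HAUS1 and HAUS7 had log2 differences of 0.01 (-0.52 to 0.55) and 0.08 (-0.39 to 0.56). HAUS2 had -0.24 (-0.82 to 0.35), and HAUS8 had -0.0049 (-0.81 to 0.80), the widest interval of the family. By level, HAUS3 ranked 7th in UM-UC-3 siNC cells and 4th in T24 siNC cells, HAUS6 ranked 4th and 6th, and HAUS5 ranked 5th and 7th. With the 6 libraries that stood apart left out, the same 3 subunits were called.

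**Figure D2:**
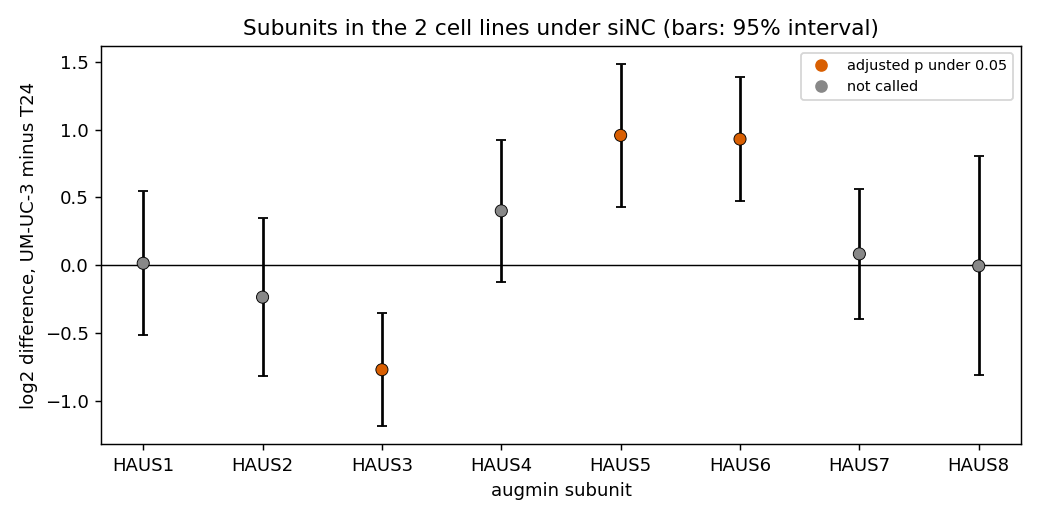
Log2 difference of each subunit between the cell lines under siNC (y axis, UM-UC-3 minus T24), with bars for the 95% interval from the edgeR model. HAUS5 at 0.96 and HAUS6 at 0.93 lie above 0 and HAUS3 at -0.77 lies below, while the intervals of HAUS1, HAUS2, HAUS7 and HAUS8 include 0. HAUS4 is drawn as a description without a test.

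HAUS4 was lower in all 12 siACAT1 libraries than in any siNC library of the same cell line. In UM-UC-3 cells the siNC libraries had 13.2, 9.40 and 14.96 RPKM, the siACAT1-1 libraries 8.18, 7.20 and 8.69, and the siACAT1-2 libraries 7.01, 7.32 and 7.37. The ACAT1 siRNA libraries of this line lay close together, and the spread was mostly among the controls. In T24 cells the values were 9.78, 7.97 and 11.4 RPKM for siNC, 2.18, 5.38 and 3.73 for siACAT1-1, and 4.31, 3.58 and 3.496 for siACAT1-2. Against siNC, the UM-UC-3 group means were 35.9% (siACAT1-1) and 42.2% (siACAT1-2) lower, and the T24 group means 61.3% and 61.0% lower. HAUS4 was the only subunit whose siACAT1 and siNC libraries did not overlap in both lines, a pattern that 0.0993% of the genes tested showed and that is part of what chose the family.

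The fitted log2 fold changes of HAUS4 for siACAT1-1 and siACAT1-2 were -0.64 (SE 0.25) and -0.83 (SE 0.25) for UM-UC-3, and -1.37 (SE 0.25) and -1.33 (SE 0.25) for T24. The mean of the 4 comparisons was -1.04 (SE 0.15), which was 246th from the lowest of 20144 genes and 45th of the 13118 genes with a mean of at least 1 RPKM. The 2 comparisons of a cell line share its siNC libraries, so they are not separate observations. With the 6 libraries that stood apart left out, the value in T24 cells with siACAT1-1 was -1.86. The siACAT1-1 library with the number 2 in T24 cells was the highest of the T24 siACAT1 libraries at 5.38 RPKM, next to a siNC library with the same number that was the lowest of its group at 7.97 RPKM.

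The HAUS4 differences between the cell lines and between the siRNAs rest on the same values that chose the family and are likewise given without a test. The knockdown effect differed by 0.62 on the log2 scale (UM-UC-3 minus T24, SE 0.30), and with the replicate block by 0.64 (SE 0.26). The difference between the ACAT1 siRNAs (siACAT1-2 minus siACAT1-1) was -0.07 for HAUS4 over both cell lines (SE 0.18), -0.19 (SE 0.25) within UM-UC-3 and 0.04 (SE 0.25) within T24. With such errors, differences of about the size of the smaller knockdown fold changes remain possible.

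**Figure D3:**
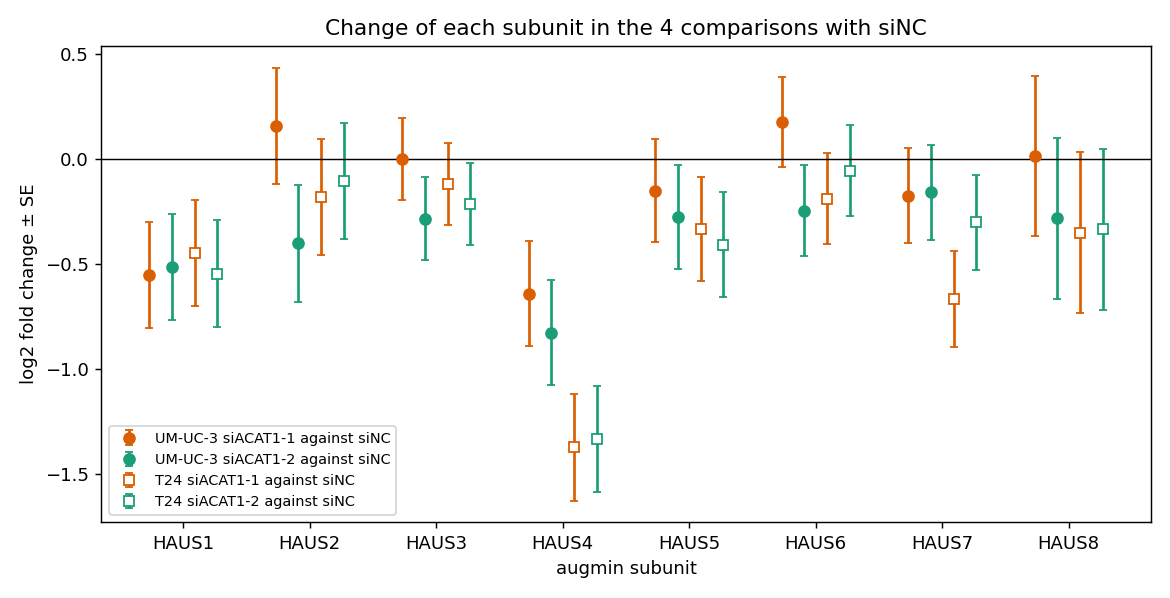
Log2 fold change against siNC (y axis) of each subunit with either ACAT1 siRNA in UM-UC-3 cells (filled circles) and T24 cells (open squares), with bars for SE from the edgeR model. HAUS4 lies lowest in each of the 4 comparisons, from -0.64 to -1.37, and HAUS1 lies between -0.45 and -0.55 in all 4.

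HAUS1, which belongs to the same arm of the complex as HAUS4, was lower than in the siNC library of the same number in 12 of 12 siACAT1 libraries. In UM-UC-3 cells the siNC libraries had 13.2, 16.1 and 9.66 RPKM, the siACAT1-1 libraries 9.70, 11.1 and 5.77, and the siACAT1-2 libraries 10.7, 9.92 and 7.37. The groups overlapped, and the library with the number 3 was the lowest of each. In T24 cells the values were 14.99, 11.7 and 12.9 RPKM for siNC, 9.40, 10.1 and 9.51 for siACAT1-1, and 9.87, 7.84 and 9.09 for siACAT1-2, with no overlap. The share of all genes lower in 12 of 12 libraries was 1.68%, and the share with no overlap in T24 cells was 1.67%.

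The fold change of HAUS1 was alike in the 4 comparisons, and its call depended on how the replicate numbers were treated. For siACAT1-1 and siACAT1-2 the log2 fold changes were -0.55 and -0.52 (UM-UC-3) and -0.45 and -0.55 (T24), and their mean was -0.51 (SE 0.15, adjusted p = 0.206, edgeR). With the replicate block the mean was -0.51 (SE 0.08, adjusted p = 0.000302, edgeR). With the block HAUS1 was also called in 3 of the 4 comparisons taken alone. The adjusted p was 0.0246 for siACAT1-1 and 0.0614 for siACAT1-2 in UM-UC-3 cells, where 1.1% and 0.72% of all genes were called lower, and 0.0331 and 0.0120 in T24 cells, where 7.31% and 3.93% were (edgeR). Without the block, but with the 6 libraries that stood apart left out, the mean was -0.53 with an adjusted p of 0.0235 (edgeR).

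HAUS7 was lower in all T24 siACAT1 libraries than in the siNC library of the same number, a pattern whose share over all genes was not computed. In T24 cells the values were 9.84, 10.1 and 8.28 RPKM for siNC, 5.62, 7.56 and 4.52 for siACAT1-1, and 8.69, 6.88 and 6.89 for siACAT1-2, and 1 siACAT1-2 library overlapped the controls. In UM-UC-3 cells the siNC libraries had 10.4, 11.5 and 6.94 RPKM, the siACAT1-1 libraries 8.56, 9.80 and 7.29, and the siACAT1-2 libraries 8.73, 9.85 and 8.11, and the groups overlapped. The mean log2 fold change of the 4 comparisons was -0.33 (SE 0.14, adjusted p = 0.396, edgeR), and with the block it was -0.31 (SE 0.09, adjusted p = 0.0192). In T24 cells with siACAT1-1 the value was -0.67 (adjusted p = 0.251, edgeR), with the block -0.67 (adjusted p = 0.00385). The siRNAs did not differ by a called amount there (siACAT1-2 minus siACAT1-1 0.37, -0.11 to 0.85, adjusted p = 0.540, edgeR; with the block 0.0876), and the library with the number 2 was lower with siACAT1-2.

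The HAUS7 counts cannot be separated from those of TREX2, a 3′ exonuclease gene on the same strand of the X chromosome. The genes share 1414 exon bases, 35.6% of those of HAUS7 (chrX:153447666-153495516, minus strand, GRCh38), and the TREX2 count was 95.8% to 99.1% of the HAUS7 count in the 18 libraries. The mean log2 fold change of TREX2 was -0.33 (adjusted p = 0.397, edgeR; with the block 0.01995), and which of the genes it belongs to cannot be told apart.

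HAUS5, another elongated-arm subunit, had a mean log2 fold change of -0.29 (SE 0.15, adjusted p = 0.506, edgeR), and with the block -0.31 (SE 0.09, adjusted p = 0.0346). Beside the siNC values given above, the UM-UC-3 libraries had 4.71, 4.96 and 2.94 RPKM for siACAT1-1 and 4.73, 4.03 and 3.11 for siACAT1-2. The T24 libraries had 2.13, 2.30 and 1.43 RPKM for siACAT1-1 and 2.05, 1.90 and 1.58 for siACAT1-2. In T24 cells the siACAT1-2 libraries lay below all siNC libraries, a pattern whose share over all genes was not computed. The T24 siACAT1-1 libraries overlapped those of siNC, and in UM-UC-3 cells both siACAT1 groups overlapped siNC. It was lower than in the siNC library of the same number in 10 of 12 libraries, and the share of all genes at this count was not computed. Both exceptions were siACAT1-1 libraries with the number 2.

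HAUS3, HAUS8, HAUS2 and HAUS6 were called in none of these tests. HAUS3 had a mean log2 fold change of -0.15 (SE 0.12, adjusted p = 0.700, edgeR; with the block 0.149) and was lower than its numbered control in 11 of 12 libraries, where 5.01% of all genes were lower in 11 or 12. HAUS8, which binds the microtubule wall, had -0.24 (SE 0.23, adjusted p = 0.780, edgeR; with the block 0.0552) and was lower in 10 of 12 libraries. HAUS2 had -0.13 (SE 0.17, adjusted p = 0.855, edgeR) and was lower in 10 of 12 libraries. The share of all genes lower in 10 of 12 was not computed. HAUS6 had -0.08 (SE 0.13, adjusted p = 0.907, edgeR) and was lower in 6 of 12 libraries, that is in 2 of 6 in UM-UC-3 cells and in 4 of 6 in T24 cells. The 95% interval of the HAUS6 mean fold change was -0.36 to 0.20, so a small change in either direction was not detectable.

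Over the family, the mean fold changes of the 7 subunits other than HAUS4 were all below 0, as were those of 50.2% of all genes tested. At an adjusted p under 0.05, 0 of these 7 passed the edgeR test, against 0.223% of all genes. At an unadjusted p under 0.05 there were 2 of 7, HAUS1 and HAUS7, against 10.9% of all genes, and DESeq2 and limma called 0. With the replicate block 3 of the 7 were called lower, against 6.46% of all genes. Of the 28 values of these 7 subunits in the 4 comparisons, 0 were called by edgeR, against 0.114% over all genes. Unadjusted, 3 had a p under 0.05, against 7.29% over all genes, and DESeq2 and limma called 0. With the block 4 of the 28 were called lower, against 3.27% over all genes. The median log2 fold change of the 7 was -0.24, beside -0.0013 for all genes tested. The comparisons were not alike: the median was -0.00022 for siACAT1-1 in UM-UC-3 cells, where 4 of the 7 were lower and 3 higher, and -0.28 for siACAT1-2 there. In T24 cells it was -0.33 and -0.30, with 7 of 7 lower for each.

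**Figure D4:**
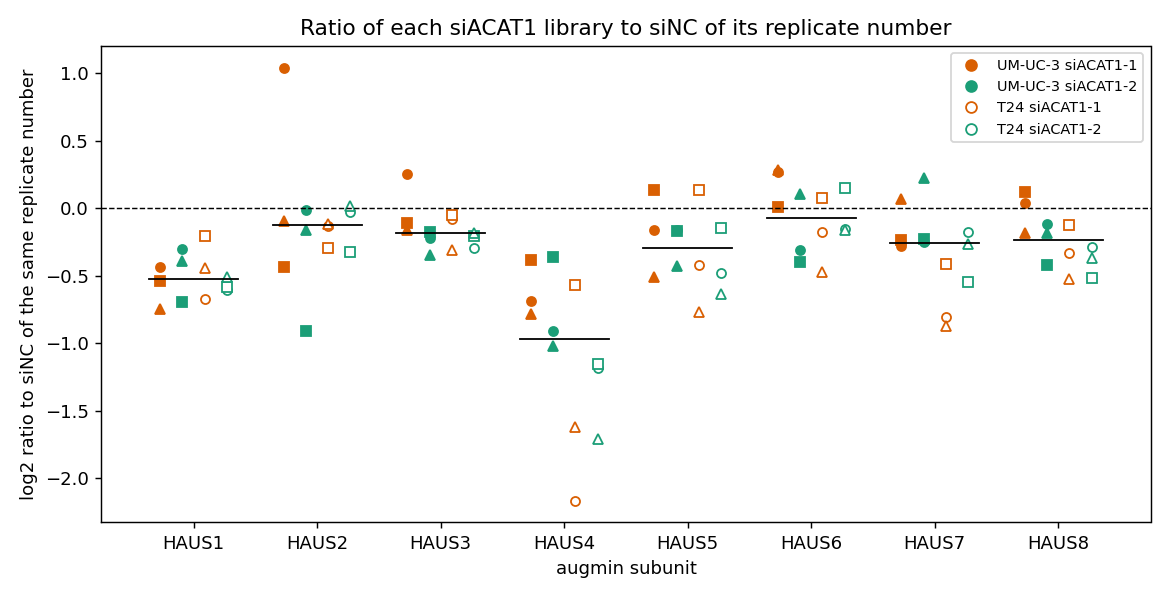
Log2 ratio of each siACAT1 library to the siNC library with the same replicate number in its cell line (y axis, from library-size scaled log2 counts) for each subunit, with circles, squares and triangles for numbers 1, 2 and 3 and black lines for the median of 12. All 12 ratios of HAUS4 (-2.16 to -0.36) and of HAUS1 (-0.74 to -0.21) lie below 0, whereas those of HAUS6 lie on both sides (-0.47 to 0.28).

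Summed over the 8 subunits, the level in UM-UC-3 cells was 53.8 ± 4.76 RPKM for siNC, 44.7 ± 6.06 for siACAT1-1 and 41.4 ± 3.08 for siACAT1-2 (SD over 3 libraries). The T24 sums were 48.7 ± 4.34, 33.3 ± 4.35 and 34.003 ± 3.84 RPKM in the same order. The mean share of HAUS4 in the sum was lower with either ACAT1 siRNA. In UM-UC-3 cells it was 23.6 ± 7.21% for siNC, 18.3 ± 4.23% for siACAT1-1 and 17.6 ± 1.73% for siACAT1-2, and the siNC shares (16.5 to 30.9%) overlapped both. In T24 cells its share was 19.98 ± 3.30%, 11.2 ± 4.10% and 11.2 ± 0.263%, and the siACAT1 shares lay below those of all siNC libraries. The HAUS1 share in T24 cells was 27.1 ± 0.967%, 29.3 ± 3.08% and 26.3 ± 1.74%. These sums and shares are descriptions, since HAUS4 was chosen for its decrease.

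The ACAT1 siRNAs were also compared with each other. Of the 7 subunits other than HAUS4, 0 differed between siACAT1-2 and siACAT1-1 over both cell lines (edgeR), against 2.56% of all genes, and with the replicate block it was also 0, against 20.6%. Without the block 0 of these 7 had an unadjusted p under 0.05, against 16.7% of all genes, and DESeq2 and limma called 0. The intervals reached from -0.66 to 0.17 for HAUS2 and from -0.15 to 0.53 for HAUS7, so differences of these sizes remain possible. In UM-UC-3 cells, HAUS6 had 7.16, 6.63 and 6.47 RPKM with siACAT1-1 and 4.81, 5.02 and 5.72 RPKM with siACAT1-2. Its log2 difference was -0.42 (adjusted p = 0.629, edgeR) and with the block -0.42 (SE 0.12, adjusted p = 0.0354), against 0.0496% and 8.15% of all genes called in these models. In T24 cells the HAUS6 difference between the siRNAs was 0.13 (adjusted p = 0.876, edgeR; with the block 0.504), where 0.968% and 14.7% of all genes were called.

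When the knockdown effects in UM-UC-3 and T24 were set against each other, 0 of the same 7 were called with edgeR, DESeq2 or limma, against 0% of all genes with edgeR and 0.104% with the replicate block, where 0 of 7 were called too. None of the 7 had an unadjusted p under 0.05 (edgeR), against 2.57% of all genes. HAUS7 had a difference of 0.32 (UM-UC-3 minus T24, 95% interval -0.27 to 0.90).

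At the HAUS4 locus (chr14:22946228-22957161, minus strand, GRCh38, 2539 exon bases), a transcript named RP11-298I3.5 (chr14:22946270-22982258) lies on the same strand, reaches from HAUS4 past the near edge of AJUBA, and shares 785 exon bases, 30.9% of those of HAUS4. Its count was 67.7% to 109% of the HAUS4 count, and its level moved with that of HAUS4, with a mean log2 fold change of -0.98 (SE 0.13). Reads in the shared bases cannot be assigned to either gene from these counts, so the parts of HAUS4 and RP11-298I3.5 in the decrease cannot be told apart. RP11-298I3.1 on the opposite strand shares 47 bases with HAUS4 and had a mean of 26.8 counts per library. Its mean log2 fold change was -0.85 (SE 0.24, adjusted p = 0.191, edgeR), and with the replicate block -0.87 (adjusted p = 0.0210). The nearest genes on either side that do not overlap HAUS4 were PRMT5 and AJUBA, and their difference from HAUS4 was not tested. PRMT5, a protein arginine methyltransferase 16643 bases away, had a mean log2 fold change of -0.10 (SE 0.09, adjusted p = 0.759, edgeR). AJUBA, a LIM-domain scaffold protein 14013 bases away on the other side, had -0.33 (SE 0.16, adjusted p = 0.468, edgeR), and with the replicate block -0.32 (adjusted p = 0.0350). For AJUBA, siACAT1-2 gave -0.61 (UM-UC-3) and -0.91 (T24, with the block adjusted p = 0.00178, edgeR), while siACAT1-1 gave 0.19 and 0.01, a difference that was not tested.

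Overlaps at the other subunits were smaller. HAUS3 shares 686 exon bases (9.71%) with POLN, which had a mean of 49.2 counts beside 799 for HAUS3, and HAUS2 shares 710 bases (16.4%) with RP11-265N6.2 on the opposite strand, which had 10.2 counts beside 138. HAUS8 shares 237 bases with CTD-2528A14.3, and HAUS1 shares 3 bases with ATP5A1. The libraries were stranded, but the strand setting of the counting is not given in the sources used here.

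Profiles like that of HAUS4 were looked for among genes with a mean of at least 1 RPKM, by the root mean square difference of library-size scaled log2 counts over the 18 libraries, each taken from the mean of its cell line. RP11-298I3.5 was closest at 0.15, and it shares reads with HAUS4. MINCR followed at 0.30, ADNP-AS1 at 0.34, ATP6V0E2 at 0.34 and SCRN2 at 0.35, beside a median of 0.66 over the 13117 genes compared. Among the subunits, HAUS7 and HAUS1 were nearest to HAUS4, both at 0.51, and HAUS8 was farthest at 0.67. A flat profile would score 0.58, the root mean square of HAUS4 itself, so HAUS2, HAUS6 and HAUS8 were farther from HAUS4 than a gene without variation. The subunits also moved with the replicate numbers. HAUS8 was low in all 3 libraries with the number 2 in T24 cells, by 0.64 on average on the log2 scale, and HAUS1 and HAUS8 were low in all 3 with the number 3 in UM-UC-3 cells, by 0.43 and 0.42. HAUS3 went the other way with the number 2 in T24 cells, at 0.32 above the group means. HAUS4 was 0.14 above its group means with the number 3 in UM-UC-3 cells and on both sides of them with the number 2 in T24 cells.

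The genes that work with augmin were described from fixed lists. For each list, the share of all genes tested with a mean fold change below 0 was 50.2%. Of 18 genes of the γ-tubulin ring complex and its tethers, 15 had a mean fold change below 0, with a median of -0.10, and 0 were called by edgeR, by DESeq2 or by limma, whereas 2 had an unadjusted p under 0.05, near the 10.9% of all genes. TUBG1, γ-tubulin itself, had 72.0 ± 4.99 RPKM for siNC, 56.9 ± 12.1 for siACAT1-1 and 59.2 ± 1.19 for siACAT1-2 in T24 cells, against 40.2 ± 13.4, 37.1 ± 11.8 and 40.3 ± 7.14 RPKM in UM-UC-3 cells, and its mean log2 fold change over the 4 comparisons was -0.19 (SE 0.16, adjusted p = 0.731, edgeR). NEDD1, the adaptor that augmin binds, had -0.10 (SE 0.11, adjusted p = 0.812, edgeR). With the replicate block 1 of the 18 was called, PCNT, the pericentrin scaffold of the centrosome, at -0.28 (adjusted p = 0.00416), against 12.4% of all genes.

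Of 23 spindle assembly factors, 21 had a mean fold change below 0, with a median of -0.40. None was called by edgeR or limma, DESeq2 called CLTC, and 11 had an unadjusted p under 0.05, against 10.9% of all genes. With the replicate block 18 were called lower and 1, CLTC (clathrin heavy chain), was called higher at 0.31 (adjusted p = 0.00298), against 6.46% of all genes called lower and 5.95% called higher. By cell line, with the block, 19 were called lower in T24 cells (median -0.68, against 5.2% of all genes) and 1 in UM-UC-3 cells (median -0.19, against 0.362%), a difference that was not tested for the list. CCNB1, the mitotic cyclin, had -0.72 (adjusted p = 0.276, edgeR; with the block 4.8e-05), and KIF15, a spindle kinesin, had -0.71 (adjusted p = 0.303, edgeR; with the block 1.45e-05). DLGAP5, which stabilizes kinetochore fibers, had -0.63 (adjusted p = 0.409, edgeR; with the block 0.000153). AURKA, the kinase that TPX2 activates on the spindle, had -0.60 (adjusted p = 0.417, edgeR; with the block 0.000710). TPX2, which acts beside augmin in branching, had -0.44 (adjusted p = 0.285, edgeR; with the block 0.00146), and in T24 cells its level was 145 ± 6.94 RPKM for siNC, 73.1 ± 4.47 for siACAT1-1 and 109 ± 37.2 for siACAT1-2, against 134 ± 24.4, 122 ± 21.5 and 117 ± 18.3 RPKM in UM-UC-3 cells. With the 6 libraries that stood apart left out, 7 of the 23 were called without the block, against 2.56% of all genes.

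Of 15 centriole duplication genes, 13 had a mean fold change below 0 (median -0.19) and 0 were called by edgeR, DESeq2 or limma, whereas 2 had an unadjusted p under 0.05, near the share of all genes (10.9%). With the block 5 were called, all lower, against 6.46% of all genes: CCP110, CETN2, STIL, PLK4 and CENPJ. CCP110, a cap protein of the centriole, had -0.57 (adjusted p = 0.275, edgeR; with the block 0.00189). The siRNAs were not alike for these genes, a difference that was not tested. With the block, CETN2 had -0.73 (UM-UC-3) and -0.97 (T24) for siACAT1-1, but -0.02 and 0.25 for siACAT1-2. For siACAT1-1 in UM-UC-3 cells, CCP110, STIL and PLK4 had -0.0065, 0.15 and 0.17, and their values in the other comparisons were below 0. Of 11 α- and β-tubulins, 7 had a mean fold change below 0 (median -0.14), and 0 were called by edgeR, DESeq2 or limma. At an unadjusted p under 0.05 there were 0, against 10.9% of all genes. With the block 1 of the 11 was called, TUBA1B, lower at -0.39 (adjusted p = 0.00673, edgeR), near the 6.46% of all genes called lower. In RNA from whole cultures, fewer cells in a phase of the cell cycle and less RNA per cell cannot be told apart, and the part of the spindle genes' shift in the subunit values was not tested.

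**Figure D5:**
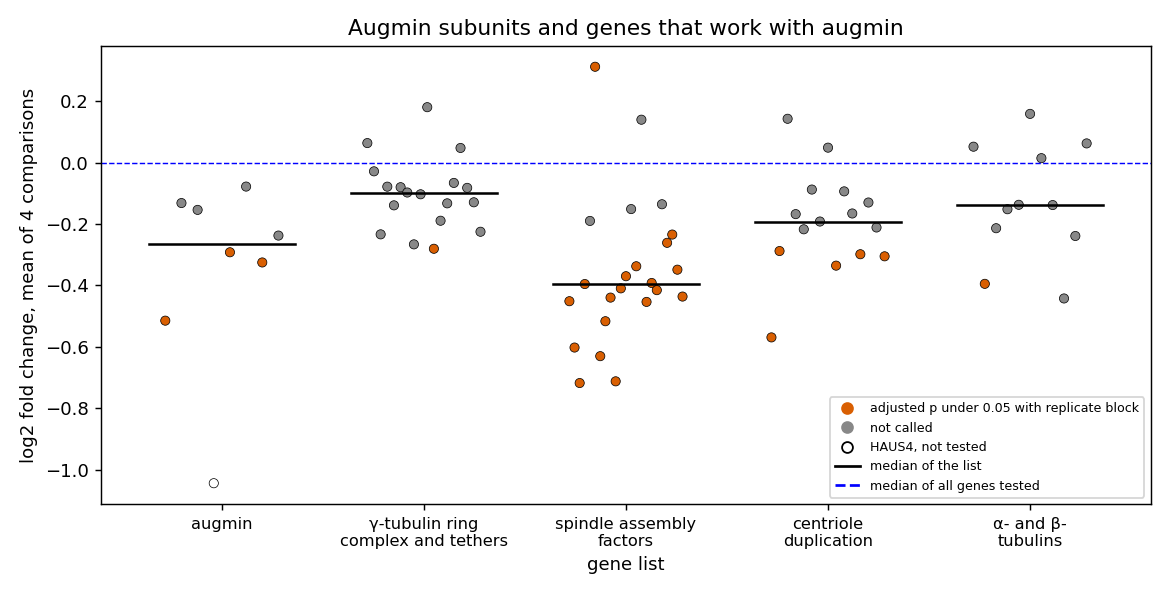
Log2 fold change, as the mean of the 4 comparisons with siNC (y axis), of each gene in the augmin family and in 4 lists of genes that work with it (x axis), with black lines for the list medians and a dashed line for the median of all genes tested. Orange points were called with the replicate block, and HAUS4 at -1.04 is drawn open because it was not tested. The spindle assembly factors have the lowest list median, at -0.40, and CLTC is the orange point above 0.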

How the data were processed

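Total RNA from 18 transfected cultures was sequenced as stranded libraries. The authors used Trimmomatic 0.36 to trim reads, STAR 2.5.3 to align them (GRCh38) and featureCounts (Subread 1.5.1) to count those on gene exons, with versions from the submitters' processing notes. The deposited raw counts cover 39496 genes without normalization. The deposited RPKM values equal the count divided by gene length and by the library's counted reads, to a relative difference of 6.4e-07. The annotation release, the strand setting and the handling of molecular identifiers and of reads on several genes are not given in the sources used here. Of counts from 1 to 20, 72.96% were even.

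Counts were tested with edgeR 4.0.16 in R 4.3.3 (TMM, filterByExpr by group, quasi-likelihood test, 1 model of 18 libraries with 6 group means). Adjusted p values are Benjamini-Hochberg over all 20144 genes tested, called under 0.05. Intervals for differences use the model's standard error and cover the spread between these libraries. Library totals ranged from 25163490 to 34417230 counts. All 18 replicate pairs differed beyond sampling noise, so each library counted once. Scripts were tested on simulated data with known fold changes.

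Deviations from group means correlated across genes for libraries of the same number, with r from 0.249 to 0.816 (median 0.709) in UM-UC-3 cells and from 0.56 to 0.827 (median 0.737) in T24 cells. Pairs with other numbers gave -0.797 to 0.493 and -0.714 to 0.3. The pairing was taken from these values. A model that blocked on the number, nested in cell line, was an alternative, as were DESeq2 1.42.0, its size factors, no filter, limma 3.58.1 on log2(RPKM + 0.1), each cell line alone, leaving out each library, and leaving out the 6 libraries that stood apart, which was added after the data were seen.

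The subunits, the gene lists and the rule for named genes were chosen with earlier results of these data known. Named were all subunits, per list up to 4 called genes with the largest changes and always TUBG1, NEDD1 and TPX2, overlapping and neighbouring genes, the 5 profiles most like HAUS4, and ACAT1. CENPJ and CLTC fall outside this rule and were named after their values were seen, as were the marker genes.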

Additional observations from a re-analysis of the deposited data

Results flagged for a closer look

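HAUS6 differed between the ACAT1 siRNAs in UM-UC-3 cells in the model with the replicate block, by -0.42 on the log2 scale (siACAT1-2 minus siACAT1-1, SE 0.12, adjusted p = 0.0354, edgeR), in a comparison where 8.15% of all genes were called. The siACAT1-1 libraries (6.47 to 7.16 RPKM) and the siACAT1-2 libraries (4.81 to 5.72 RPKM) lay on either side of the siNC mean of 5.96 RPKM. The result was singled out because it was called between the siRNAs here, and it was not called without the block (adjusted p = 0.629, edgeR). HAUS6 was the only subunit called in this comparison, which in so small a family is near the share of all genes. In T24 cells the difference had the other sign, at 0.14 with the block (adjusted p = 0.504, edgeR).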

How the results depend on the processing

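The replicate block raised the calls among the 7 subunits other than HAUS4 from 0 to 3 for the mean of the 4 comparisons, and those over all genes from 0.223% to 12.4%. In the separate comparisons it raised them from 0 to 4 of 28, where 0.114% of all values were called without the block and 3.27% called lower with it. It raised the calls for the siRNA difference in UM-UC-3 cells from 0 to 1 (HAUS6), and those over all genes from 0.0496% to 8.15%. In the mean of the 4 comparisons it raised the calls among γ-tubulin ring complex genes to 1, spindle assembly factors to 19, centriole duplication genes to 5 and tubulins to 1, beside the same 12.4%. With the ACAT1 siRNAs averaged within a cell line, the block raised the calls from 0 to 1 of the 7 in UM-UC-3 cells (HAUS1). In T24 cells it raised them from 0 to 2 (HAUS1 and HAUS7). All of these were lower, where 0.362% and 5.2% of all genes were called lower with the block. It changed no other call of these subunits. Without the 6 libraries of UM-UC-3 number 3 and T24 number 2, HAUS1 was called in the mean and HAUS7 in 1 of 28 separate values, and 7 spindle assembly factors were called. In that setting 2.56% of all genes were called in the mean, and the share over all genes in the separate comparisons was not computed. DESeq2, its size factors, no filter, limma and each cell line alone called 0 of the subunits other than HAUS4 in the knockdown comparisons and 0 between the siRNAs. Leaving out 1 library at a time gave 0 calls for each knockdown and siRNA comparison and 3 for the cell lines, with the HAUS4 mean fold change between -1.12 and -0.98.

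Values near 0 turned with the setting. Leaving out 1 library, the HAUS8 mean fold change ranged from -0.38 (without T24 siNC replicate 2) to -0.09 (without T24 siNC replicate 1) and that of HAUS2 from -0.23 (without UM-UC-3 siNC replicate 1) to -0.07 (without UM-UC-3 siNC replicate 3). The HAUS6 mean fold change ranged from -0.17 to 0.042 and turned without T24 siNC replicate 1. The cell line difference of HAUS1 was -0.0070 with DESeq2, -0.0070 with its size factors, -0.029 without a filter and -0.050 with limma, and that of HAUS8 was 0.013 with limma. Leaving out 1 library gave -0.18 to 0.20 for HAUS1, -0.082 to 0.28 for HAUS7 and -0.33 to 0.29 for HAUS8. The causes were not tested. The 3 libraries a group, and counts of 76 to 192 for HAUS2, limit what could be detected.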
